A study of Mus musculus with 21 samples.

Results

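The 40 genes described here carry the signal from sensors of microbial products to the transcription factor NF-kB. They were chosen by name, and every one of them was found among the 43193 gene symbols of the authors' merged annotation. RNA came from circumvallate taste buds, collected by dissecting the circumvallate papillae at the back of the tongue. The mice were wild-type C57BL/6J, an inbred laboratory strain, aged 20 to 24 weeks. The labels give 21 libraries, with 7 in each of the groups Ad lib, Satiated and Hungry (ad libitum fed, fed or fasted mice by the design text), and do not say whether a library is 1 mouse.

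In this pathway, Toll-like receptors and their helpers bind microbial products outside the cell or in endosomes, and NOD-like receptors sense them in the cytosol. Adaptor proteins of Toll-like receptors then recruit IRAK kinases, and NOD1 and NOD2 recruit the kinase RIPK2. TRAF ubiquitin ligases and the TAK1 complex follow, which switch on the IkB kinases. IkB proteins hold NF-kB dimers inactive in the cytosol until IkB kinases mark them for destruction. The dimers then enter the nucleus, where they also switch on genes of their own inhibitors. Taste buds border the oral cavity with its resident microbes, and taste cells themselves have been described as expressing Toll-like receptors.

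The deposited table gave, for each of 32052 loci, the authors' mean over libraries of depth-scaled fragments, with a variance and a fitted variance. Values under the 3 condition letters of the table were the same at every locus, with 0 loci that differed. No fold change between Ad lib, Satiated and Hungry mice could therefore be computed for any of the 40 genes, and each level below pools all 21 libraries. Nor did the table hold a level per library, so spread is given as CV, the SD (standard deviation, root of the variance the authors deposited) over the mean. The log2 ratio of that variance to the fitted one is the second measure of spread, above 0 where a locus varied more than the authors' fit for its level. Loci with fragments in 1 library have a squared CV that depends on how many libraries were pooled in its set. Such values fell at those of sets of 8, 7 and 6 libraries (474, 667 and 454 loci, within a relative tolerance of 0.0001), where the labels give 7 in each group, and which set was which group was not known. The deposited variance is thus pooled within those sets over 21 libraries, and the CV and the log2 ratio leave out any difference between the means of the sets. On average a library held 21881979 compatible fragments, those that fit an annotated transcript, of 23769781 in total. The 8 taste cell markers ranged from Plcb2 at 551 to Krt8 at 20531 compatible fragments per kb of transcript. This length-corrected level is used below to compare genes. Gnat3 had 19066, Pkd2l1 1377 and Car4 867, and at Plcb2 18.9% of fragments were compatible. Markers of the surrounding tongue epithelium ranged from Lor at 109 to Krt6a at 18575 fragments per kb. At single-gene loci the means of these keratinocyte markers summed to 84739 fragments, against 88998 for the taste cell markers. All 6 keratinocyte markers were detected and had a variance above the authors' fit, with Krt13 at 10703 fragments per kb and a CV of 1.58. Of 10 leukocyte markers 6 were detected, among them the pan-leukocyte gene Ptprc at 8.26 and Lyz2 at 26410 fragments per kb, while Cd3e and Ly6g were listed at 0. Lyz2 stood far above the rest, of which Csf1r was highest at 105 fragments per kb, at a locus shared with Hmgxb3. Which cells the Lyz2 RNA came from was not tested. In whole-tissue RNA, fewer cells of a type and less RNA per cell cannot be told apart.

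Most loci that hold a gene of the pathway had fragments in RNA of the dissected papillae. A gene was called detected where its locus had a mean of at least 10 compatible fragments. This held for 38 of the 40 genes, against 67.3% of all 21696 protein-coding genes. These 38 comprised 23 with a locus to themselves and 15 that shared one with other genes. For 9 of the 15 the locus held another protein-coding gene, so detection there holds for the locus and not for the gene alone. Among the 23, the median level was 208 fragments per kb, against 180 over 7518 detected single-gene protein-coding loci, and 12 of the 23 lay above that median. The highest was Cd14 and the lowest Rel, 2220 against 5.09 fragments per kb. In the order of the 23 levels, 18 of 22 neighbouring pairs had overlapping ranges of 1 SD, so that spread did not set those neighbours apart. Genes further apart in a run could still be separate, as Chuk (850 to 1072) and Rela (363 to 454) were. The SD is a spread of libraries and not the error of a mean. The 4 steps beyond that spread lay between Cd14 and Chuk, between Rela and Ly96, between Nfkb1 and Lbp, and between Nod1 and Nod2.

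**Figure D1:**
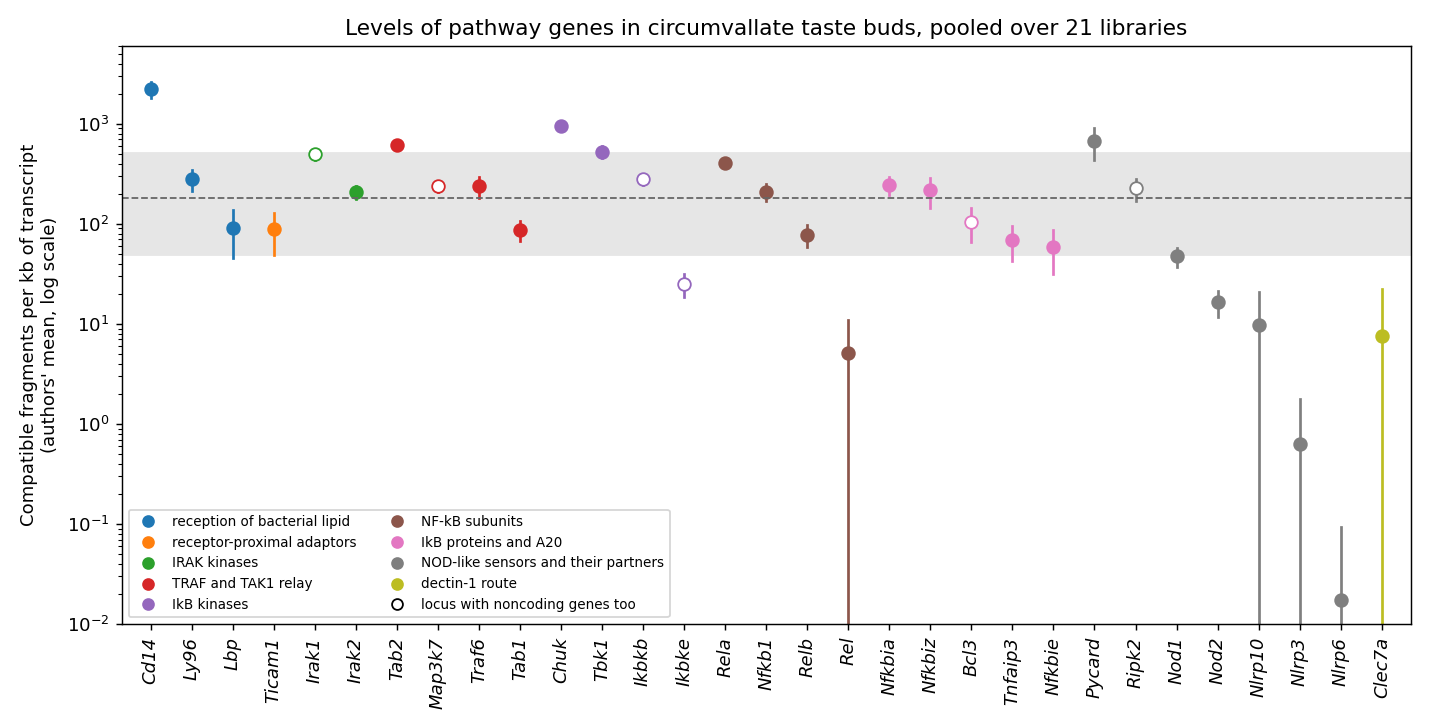
Compatible fragments per kb of the longest reference transcript (log axis), one point per gene, for the 31 genes whose locus holds no other protein-coding gene; the bars span 1 SD either way from the authors' variance and run to the axis floor where the SD exceeds the mean. The dashed line and grey band are the median (180) and quartiles (48.8 and 517) of detected single-gene protein-coding loci. Cd14 stands highest at 2220, and Rel, Nlrp10, Clec7a, Nlrp3 and Nlrp6 lie below 10.

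Genes that bind bacterial lipid differed widely in level. CD14 hands lipopolysaccharide to the receptor complex, and its gene (chromosome 18, 36725074 to 36726736, GRCm38) had 3491 compatible fragments with a CV of 0.176 and a log2 ratio of 0.14. Its 2220 fragments per kb exceeded those of 94.9% of detected single-gene protein-coding loci. Ly96 encodes MD-2, which binds the lipid beside TLR4, and had 186 fragments, 279 per kb, with a CV of 0.228 and a log2 ratio of −1.72. Lbp encodes the binding protein that extracts the lipid from bacteria, and had 231 fragments, 91.6 per kb, with a CV of 0.506 and a log2 ratio of 0.83. Cd14 was thus 7.96 times as high as Ly96 per kb, or 12.2 times with all exons as the length. It stood above the macrophage markers Cd68 at 78.5, C1qa at 46.9 and Adgre1 at 8.68 fragments per kb, and below Lyz2. A part of macrophage RNA in the Cd14 level was not tested.

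Receptor-proximal adaptors were harder to read, because 2 of the 3 sat at loci shared with other protein-coding genes. MyD88 is the adaptor of nearly all Toll-like receptors. Its locus, which also holds Oxsr1, Acaa1a, Xylb and other genes, had 3412 fragments with a CV of 0.0803. TIRAP bridges TLR2 and TLR4 to MyD88, and its locus with Fam118b, Foxred1 and Srpr had 8018 fragments with a CV of 0.107. Neither value can be assigned to the adaptor gene. Ticam1 had a locus to itself (chromosome 17, 56269319 to 56276786). It encodes TRIF, the adaptor of TLR3 and of endosomal TLR4, and had 266 fragments, 88.9 per kb, with a CV of 0.451 and a log2 ratio of 0.65. That CV was higher than those of 83.6% of the 501 detected single-gene loci nearest in level.

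IRAK and IkB kinase genes had a variance below the fit, as most loci did. This held for all 4 IRAK loci and all 5 IkB kinase loci, Irak3, Irak4 and Ikbkg at loci with other protein-coding genes, while 26.1% of all 13467 detected loci lay above the fit. Irak2, a kinase of the MyD88 complex with a locus to itself, had 666 fragments, 209 per kb, with a CV of 0.148 and a log2 ratio of −1.55. Irak1 had 494 fragments per kb at a locus that also holds Mir5132 and Mir718, with a CV of 0.130. Irak4, the first kinase to join MyD88, shared a locus of 8128 fragments with Twf1, and Irak3, an inhibitory IRAK, shared one of 1633 fragments with Tmbim4. In the relay, Tab2 and Tab1 encode subunits that bind the kinase TAK1. Tab2 had 2701 fragments, 617 per kb, with a CV of 0.109 and a log2 ratio of −1.36. Tab1 had 255 fragments, 87.0 per kb, with a CV of 0.218 and a log2 ratio of −1.49. The TAK1 gene Map3k7 had 239 fragments per kb with a CV of 0.131, at a locus with 2 noncoding genes. Tab2 was 7.09 times as high as Tab1 per kb, or 5.06 times with all exons as the length. Traf6, the ubiquitin ligase between IRAKs and TAK1, had 1462 fragments, 237 per kb. It lay above the fit, with a log2 ratio of 0.50 and a CV of 0.234 that exceeded those of 90.02% of loci nearest in level. Traf3, a ubiquitin ligase on the route to TBK1, shared a locus of 572 fragments with 4930595D18Rik.

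Among IkB kinases, Chuk had the highest level per kb of the longest transcript. It encodes IKK alpha (chromosome 19, 44073335 to 44107480) and had 3365 fragments, 961 per kb, with a CV of 0.116 and a log2 ratio of −1.09. Ikbkb, which encodes IKK beta, had 278 at a locus shared with the noncoding gene Gm15346 (CV 0.121). Chuk was therefore 3.45 times as high as Ikbkb per kb, or 7.55 times with all exons as the length. For the scaffold subunit gene Ikbkg no level of its own was available, since its locus of 8248 fragments also holds G6pdx. The related kinase genes Tbk1 and Ikbke encode activators of interferon regulatory factors. Tbk1 had 1599 fragments, 527 per kb, with a CV of 0.140 and a log2 ratio of −0.93, and Ikbke, at a locus with 2 noncoding genes, had 25.2 per kb with a CV of 0.260. Tbk1 thus exceeded Ikbke by 20.9 times, or 32.2 times with all exons. Chuk was 1.82 times as high as Tbk1, but 1.25 times with all exons, where the ranges of 1 SD overlapped.

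NF-kB subunits were led by Rela, the activating p65 subunit (chromosome 19, 5637483 to 5648130). Rela had 1109 fragments, 408 per kb, with a log2 ratio of −1.85 and a CV of 0.112, which was higher than at 6.99% of loci nearest in level. Nfkb1, which encodes the p105 precursor of p50, followed with 857 fragments, 208 per kb, a CV of 0.191 and a log2 ratio of −0.56. Relb, the subunit of the alternative pathway, had 255 fragments, 78.0 per kb, with a CV of 0.255 and a log2 ratio of −1.04. Rel, the c-Rel subunit best known from lymphocytes, had 14.2 fragments, 5.09 per kb, with a log2 ratio of 0.55 and a CV of 1.16 where counting alone gives about 0.265. Per kb, Rela was 1.96 times as high as Nfkb1, 5.23 times as high as Relb and 80.3 times as high as Rel. With all exons as the length these ratios were 2.28, 6.21 and 80.3. The ratio to Rel is rough, since the SD of Rel exceeded its mean and 60.6% of its fragments were compatible. By total fragments Rela had 416 and Rel 8.39 per kb. Nfkb2, the p100 precursor of p52, shared a locus with Psd, where 259 of 645 fragments were compatible.

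Genes of IkB proteins and A20 ranged in log2 ratio from −1.22 to 1.13 at loci of their own. Nfkbia encodes IkB alpha, the main cytosolic inhibitor and a classic NF-kB target (chromosome 12, 55489411 to 55492647). It had 383 fragments, 243 per kb, with a CV of 0.205, below the fitted variance by a log2 ratio of −1.22. Nfkbiz, which encodes the nuclear co-activator IkB zeta (chromosome 16, 55811375 to 55838899), had 894 fragments, 217 per kb, a level within 1 SD of that of Nfkbia. Its CV was 0.337 and its log2 ratio 1.13, so similar levels came with different spread. Tnfaip3 encodes A20, a ubiquitin-editing brake (chromosome 10, 19000910 to 19015657), and had 424 fragments, 68.4 per kb, with a CV of 0.378 and a log2 ratio of 0.66. Nfkbie, for IkB epsilon, had 143 fragments, 59.0 per kb, a CV of 0.462 and a log2 ratio of 0.03. Bcl3, a nuclear IkB protein, had 105 fragments per kb (CV 0.369) at a locus with 2 noncoding genes. Nfkbib, for IkB beta, shared a locus of 1623 fragments with Sirt2, and that locus had the lowest log2 ratio of the 38, −2.69.

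Because NF-kB acts on its own pathway genes, their promoters were searched for its binding motif. RefSeq promoter windows on GRCm38.p6, 250 bases before to 50 after the start site, were available for 30 of the 40 genes. Cd14, Ly96, Lbp, Tab1, Ikbkb, Nfkb1, Relb, Nfkbiz, Nlrp10 and Ripk2 had no window and were not searched. The 10-base kappa B consensus was searched on both strands, and a gene counted once whatever its number of matches. It occurred for 10 of the 30 genes (33.3%), against 10.5% of 17491 protein-coding genes. By window the shares were 30.2% of 43 and 8.46% of 32851. A match is a description of the sequence and not a measured binding site. Of the genes with a match, Nfkbia, Tnfaip3, Rel and Nfkbie were detected at single-gene loci. Of these 4, all but Nfkbia lay above the fitted variance, Nfkbie by a log2 ratio of only 0.03 and Rel with a mean of 14.2 fragments. Among 11 such genes whose windows held no match 4 lay above it, and among all detected single-gene loci 27.6%. Whether a match goes with spread was not tested.

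Both full windows below are shown because Nfkbia and Tnfaip3, each an inhibitor and a textbook NF-kB target, differed in log2 ratio (−1.22 and 0.66). Each runs 5′ to 3′ on the minus strand of GRCm38.p6, chr12:55492598-55492897 for Nfkbia and chr10:19015361-19015660 for Tnfaip3, with consensus matches in capitals. Counted from the start site, with negative positions before it, the Nfkbia match spans −29 to −20. Those of Tnfaip3 span −125 to −116 and −12 to −3.
Nfkbia: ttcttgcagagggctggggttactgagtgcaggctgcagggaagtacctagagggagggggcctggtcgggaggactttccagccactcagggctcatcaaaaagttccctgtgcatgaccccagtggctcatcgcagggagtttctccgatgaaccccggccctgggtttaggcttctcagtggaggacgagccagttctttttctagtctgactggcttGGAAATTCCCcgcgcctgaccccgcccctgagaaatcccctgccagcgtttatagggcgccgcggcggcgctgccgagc
Tnfaip3: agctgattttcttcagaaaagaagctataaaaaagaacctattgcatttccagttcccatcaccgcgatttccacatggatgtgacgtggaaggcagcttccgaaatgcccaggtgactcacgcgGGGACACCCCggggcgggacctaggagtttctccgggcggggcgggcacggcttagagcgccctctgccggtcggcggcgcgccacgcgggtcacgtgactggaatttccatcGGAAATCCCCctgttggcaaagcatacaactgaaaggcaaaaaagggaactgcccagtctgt

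The matches of further genes, with 12 bases on either side and again in capitals, are shown because they belong to genes with other roles in the pathway. They were picked by the consensus, so their likeness to it is no result. Rel and Nfkb2 encode subunits, Nfkbie and Bcl3 IkB proteins, Traf3 and Map3k7 relay proteins, Irak1 a kinase and Nlrp3 an inflammasome sensor. All are written on the strand of the gene, and in Rel and Nfkb2 overlapping matches form a run of 11 capitals. For Nfkb2 the first of several matches is shown. On GRCm38.p6 the stretches lie on the plus strand at chr19:46304686-46304720, chr17:45555582-45555615, chr12:111166348-111166381, chr4:31964003-31964036 and chr11:59541371-59541404, in the order Nfkb2, Nfkbie, Traf3, Map3k7 and Nlrp3. Those of Rel, Bcl3 and Irak1 lie on the minus strand at chr11:23771039-23771073, chr7:19822732-19822765 and chrX:74023918-74023951.
Rel: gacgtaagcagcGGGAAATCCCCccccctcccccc
Nfkb2: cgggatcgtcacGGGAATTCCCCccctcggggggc
Nfkbie: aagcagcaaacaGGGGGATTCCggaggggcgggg
Bcl3: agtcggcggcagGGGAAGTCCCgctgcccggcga
Traf3: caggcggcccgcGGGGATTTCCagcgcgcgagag
Map3k7: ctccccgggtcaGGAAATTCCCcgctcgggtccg
Irak1: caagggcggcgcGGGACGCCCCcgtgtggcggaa
Nlrp3: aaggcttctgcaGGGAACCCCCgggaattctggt
Nfkbia and Map3k7 share the same 10 capitals, and those of Traf3 are the reverse complement of those of the Tnfaip3 match nearest the start site. Genes with a match covered a wide range of levels, from Nlrp3 at 0.635 to Irak1 at 494 fragments per kb.

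NOD-like sensors were below the median of 180 fragments per kb and their partner Pycard was above it, though Nod1 came to 171 by total fragments. Pycard encodes ASC, the adaptor that joins inflammasome sensors to caspase-1 (chromosome 7, 127992103 to 127993867), and had 941 fragments, 670 per kb. Its CV was 0.357 and its log2 ratio of variance 1.34, higher than 94.8% of loci nearest in level by CV. Ripk2, the kinase below NOD1 and NOD2, had 226 fragments per kb (CV 0.243) at a locus with the noncoding gene Gm22690. Nod1, a sensor of bacterial peptidoglycan (chromosome 6, 54923942 to 54972612), had 206 compatible fragments, 47.7 per kb, with a CV of 0.215. Nod2, its relative, had 77.7 fragments, 16.5 per kb, with a CV of 0.285, and both lay below the lower quartile of the log2 ratio over single-gene loci (−1.77 and −2.03, against −1.23). Nlrp10, a NOD-like protein described in skin, had 44.1 fragments, 9.85 per kb, with a CV of 1.13 and a log2 ratio of 1.38.

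Only Nlrp3 and Nlrp6 of the 40 genes were not detected. Nlrp3, the sensor of the best-known inflammasome, had a mean of 2.55 fragments, or 53.6 scaled fragments over all libraries, with at least 15.9% of them in 1 library. Nlrp6, an inflammasome sensor of intestinal epithelium, had a mean of 0.0880 fragments. Its squared CV equalled, within the same tolerance, the 18.375 that fragments in a single library of a set of 8 give. Its 1.85 scaled fragments thus came from 1 library, and lie under the 3 counts that a count of 0 allows. For Rel, the lowest gene that was detected, the mean was 14.2.

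The dectin-1 route gave the highest CV among the 23 detected genes with a locus to themselves. Clec7a encodes dectin-1, a receptor of myeloid cells for fungal glucan (chromosome 6, 129461591 to 129472777). It had 17.4 fragments, 7.62 per kb, with a CV of 1.91, where counting alone gives about 0.240. At least 17.4% of its scaled fragments came from 1 library, where each library would hold 4.76% if all 21 were equal. Its log2 ratio of 2.14 was the highest of the 23 genes. The leukocyte marker Ptprc, at a locus with the noncoding gene RP23-361M12.2, had 8.26 fragments per kb, or 2.59 with all exons. Its CV was 2.14, with at least 21.7% of its fragments in 1 library. Other detected leukocyte markers had lower CVs: Adgre1 1.14, C1qa 0.790, Cd68 0.350, Csf1r 0.207 (shared locus) and Lyz2 0.193. Whether Clec7a and Ptprc were high in the same library was not tested, since no level per library was at hand. Card9, the adaptor below dectin-1, shared a locus of 74.9 fragments with Snapc4 (CV 0.460).

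**Figure D2:**
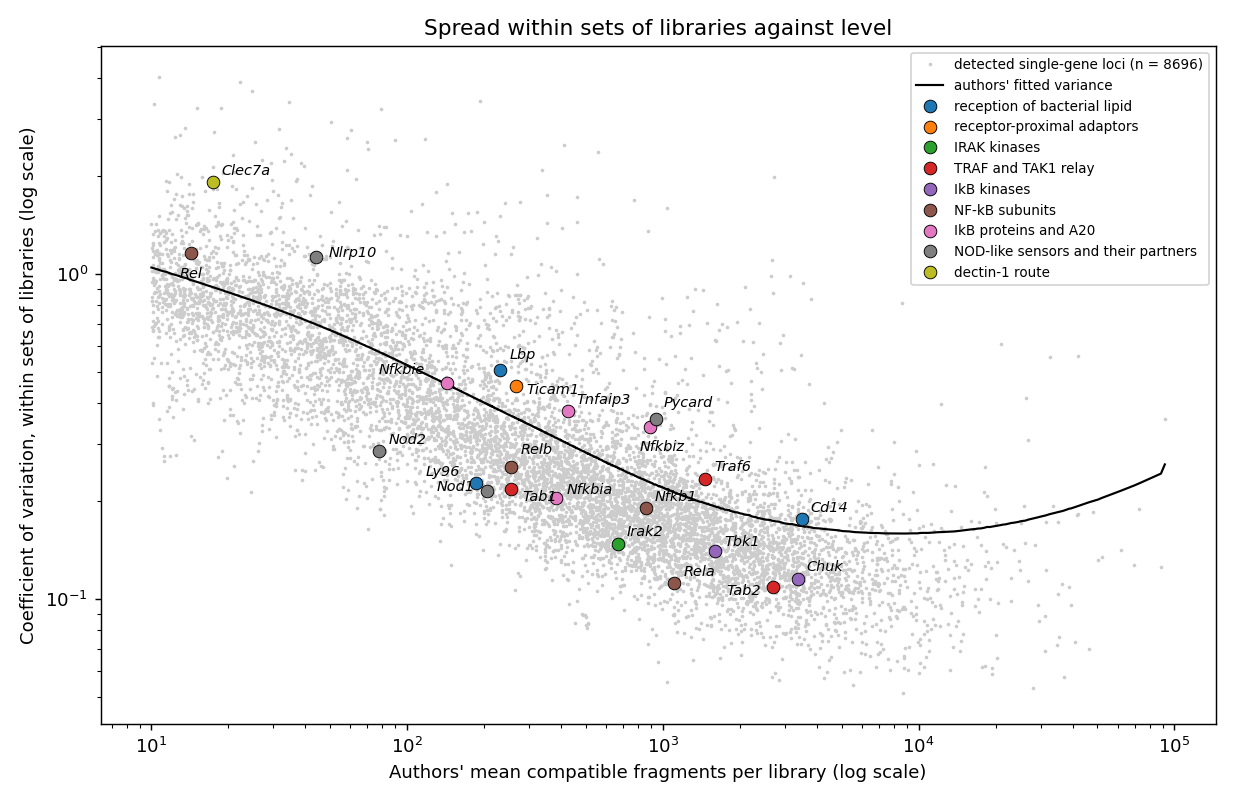
CV from the authors' variance within sets of libraries against the authors' mean compatible fragments (both axes logarithmic); grey points are 8696 detected single-gene loci, coloured points the 23 pathway genes with such a locus, and the line the CV of the authors' fitted variance. Clec7a, Nlrp10, Pycard and Nfkbiz stand above the line, and Rela, Nod1, Nod2 and Ly96 below most loci of their level.

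At the single-gene loci of the list, the typical spread was near that of other loci. Across the 23 genes the median log2 ratio of variance to fitted variance was −0.56, against −0.62 over 8696 detected single-gene loci, and the median CVs were 0.234 and 0.253. By count, 11 of the 23 genes (47.8%) lay above the fit, against 27.6% of those loci, and 10 of them lay above the upper quartile of 0.08. Those above were Cd14, Lbp, Ticam1, Traf6, Rel, Nfkbie, Nfkbiz, Tnfaip3, Nlrp10, Clec7a and Pycard. None of the 15 shared loci lay above it. With shared loci included the count was 11 of 38 (28.9%), against 26.1% of all 13467 detected loci, a share near the background. The median log2 ratio was then −1.04, against −0.65 over all detected loci. The authors' fit ran above most loci, and against a running median of loci nearest in level 12 of the 23 genes (52.2%) were above, close to the 49.9% of all such loci. By group, 3 of 4 single-gene IkB and A20 genes lay above the fit, Nfkbie by a log2 ratio of only 0.03. So did 2 of 3 lipid-binding genes and 2 of 4 NOD-like genes. Of subunits 1 of 4 did, of relay genes 1 of 3, and of IkB kinases 0 of 2. No level per library was at hand to set beside the keratinocyte markers, whose median log2 ratio was 5.56, so their part in the spread of these genes was not tested.

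**Figure D3:**
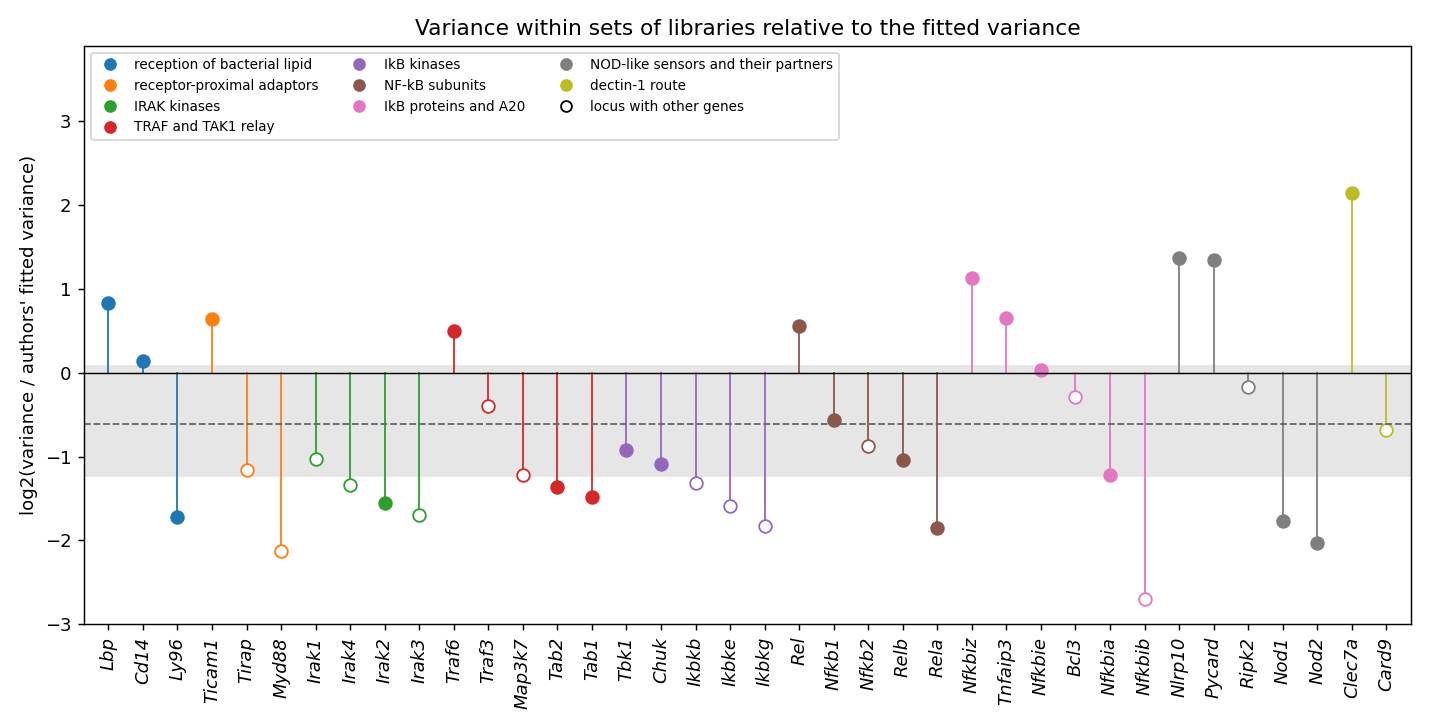
Log2 ratio of the authors' variance to their fitted variance for the 38 detected genes, ordered by role; filled points are single-gene loci, open points loci with other genes. The grey band and dashed line are the quartiles (−1.23 and 0.08) and median (−0.62) of detected single-gene loci. All 15 open points and all IRAK and IkB kinase points lie below 0.

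Compatible shares singled out Nod1. Its compatible fragments made up 27.9% of the 737 at its locus, against a median of 95.5% and a lower quartile of 86.3% over detected single-gene loci. Rel followed at 60.6% of 23.5 fragments, Nfkbia at 72.9% of 525 and Pycard at 77.5% of 1215, whereas 15 of the 23 genes were over 90%. The reason for the other fragments was not tested. In the merged annotation 39 transcripts of the 40 genes had a splice pattern absent from the reference, beside 207 reference ones. That is 15.9% of their transcripts, against 14.2% of all 127466, with the most at Irak1, 9 beside 22.

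**Figure D4:**
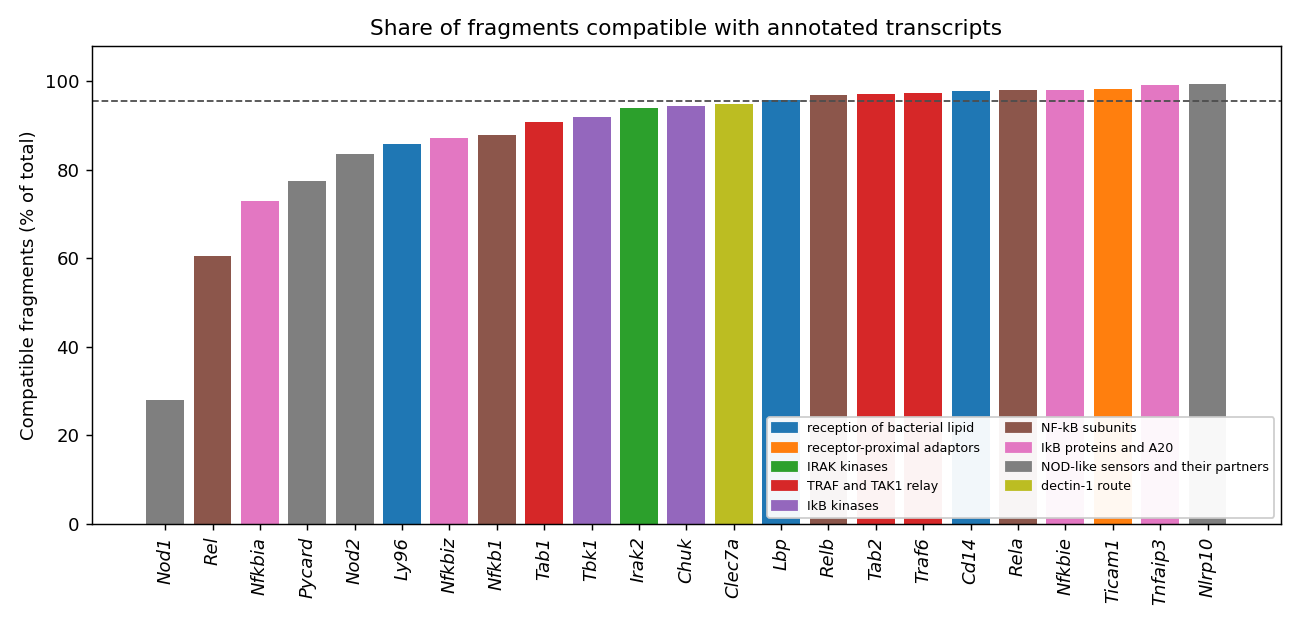
Compatible fragments as a percentage of all fragments at the locus for the 23 detected genes with a single-gene locus, coloured by role; the dashed line is the median of detected single-gene loci, 95.5%. Nod1 stands apart at 27.9%, followed by Rel, Nfkbia and Pycard.

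Other genes of the pathway gave a frame for these values. Of 60 further genes in 5 lists 50 were detected, against 67.3% of all protein-coding genes. Of the 34 at single-gene loci, 12 lay above the fitted variance (35.3%, against 27.6% of all such loci), with a median log2 ratio of −0.56. The genes named below as leading are those highest at single-gene loci. Toll-like receptors were detected for 5 of 12 genes, led by Tlr3, which senses double-stranded RNA, at 399 fragments per kb and Tlr4, the lipopolysaccharide receptor, at 273, and 4 of the 5 lay above the fit. Cd14 thus had a higher level per kb than Tlr4, which had 551 by total fragments. By total fragments Tlr1 would be the highest receptor gene, with 7199 fragments, 2715 per kb, of which 0.0972% were compatible, and Tlr13 had 1129 fragments, of which 0.368% were compatible. Tlr1 and Tlr13 were singled out after their values had been seen, and neither counts as detected here. Ubiquitin enzymes and their partners were detected for 19 of 19 genes, led by the A20 partner Tax1bp1 at 3530 (1755 with all exons as the length) and the conjugating enzyme gene Ube2n at 1351 fragments per kb. In that list 3 of 11 single-gene loci lay above the fit, among them Birc3, an inhibitor of apoptosis protein, at a log2 ratio of 1.34 and the A20-binding gene Tnip3 at 1.38. The group of BCL10, MALT1 and related proteins was detected for 9 of 10 genes, led by Bcl10 at 1880 fragments per kb, with 1 of 7 above the fit. Cytosolic sensors, caspases and interferon regulatory factors were detected for 12 of 14 genes. They were led by Tmem173, which encodes STING, at 1540 and Casp1, the inflammasome protease, at 1329 fragments per kb. Here 4 of 7 lay above the fit, with the RNA sensor gene Ddx58 highest at a log2 ratio of 1.87. The last list held Tollip, Sigirr and Sarm1, which restrain Toll-like receptor signalling, with the TLR4 adaptor gene Ticam2 and Unc93b1, a chaperone of endosomal receptors. All 5 were detected, Ticam2 at a locus shared with Tmed7. Tollip had 840 fragments per kb, and 0 of 4 single-gene loci lay above the fit.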

How the data were processed

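Per the submitters' processing notes, Trimmomatic, FastQC, TopHat, Bowtie2, Cufflinks and Cuffdiff were used on GRCm38.p4. Tool versions: not given in the sources used here. Per the labels' protocols, cDNA was made with oligo(dT) primers. The deposited level is a signal: fragments scaled for depth and averaged over libraries by the authors, not divided by length. Variances and fitted variances are the authors' deposited values. Loci were matched to gene symbols by the exons they contain in the deposited merged annotation, with biotypes from GENCODE M21. Levels per kb divide the compatible mean by the longest reference transcript of the gene. The running median used 501 detected single-gene loci nearest in mean; this step was tested on simulated data. A locus's squared CV divided by 21 gave a lower bound on the share in its leading library, which the true share can exceed. Counting error was taken as 1 over the square root of the mean. Every gene of the list was to be named, and of each further list at most the genes highest per kb or by log2 ratio. The members and lists were chosen with earlier results of these data known. Alternatives are given in the closing section. The scripts ran in Python 3.11.15 with pandas 2.3.3 for tables, numpy 2.4.6 for medians and matplotlib 3.10.9 for plots.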

Additional observations from a re-analysis of the deposited data

How the results depend on the processing

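No paired analysis was possible because the deposited table holds no level per library, and leaving out libraries was not possible for the same reason. The count of 38 detected genes of 40 stood against 67.3% of all protein-coding genes. It was 39 at a minimum mean of 1, 35 at 50 and 38 by total fragments. Where single-gene loci alone counted it was 23, of the 25 genes with such a locus. The share of all genes was not computed for these alternatives. The count above the fitted variance was 11 of 23 (47.8%, against 27.6% of all such loci), and ranged from 8 to 12 over its alternatives. It was 12 of 24 at a minimum mean of 1 (50%, against 31.1%) and 8 of 20 at 50 (40%, against 25.2%). With shared loci it was 11 of 38 (28.9%, against 26.1%), and where the gene is the one protein-coding gene 11 of 29 (37.9%, against 25.9%). Against either running median it was 12 of 23 (52.2%, against 49.9%). The median log2 ratio was −0.56, against −0.62 over all such loci. At a minimum of 1 it was −0.27 against −0.55, and at 50 it was −0.98 against −0.69. With all loci that hold one of the genes it was −1.04 against −0.65. It was −0.93 against −0.64 at loci where the gene is the one protein-coding gene, an alternative added after the data had been seen. The genes' median thus lay above that of all loci in some settings and below it in others. It turned to 0.15 against the running median and to 0.26 by total fragments with their own running median, settings whose centre over all loci is near 0 by construction. Of single genes, Nfkb1 changed sign, to 0.15 against the running median, and 22 did not. With all exons as the length, 4 of 23 levels per kb moved by more than 1 SD (Ly96, Irak2, Tab2 and Chuk), and by total fragments 2 did (Nfkbia and Nod1). Depth limits Rel, Nlrp10 and Clec7a, whose means were below 50 fragments.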
